A study of Mus musculus with 16 samples.

Results

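Complement is a cascade of serum and tissue proteins that marks targets for removal. C1q, built from 3 chains encoded by C1qa, C1qb and C1qc, recognises a target and starts the classical pathway, C4 and C3 are then cleaved and deposited on it, and the released fragments signal through receptors such as C3aR1 and C5aR1. In the brain, microglia are the main source of C1q, and C1q and C3 are known for tagging synapses for engulfment and for their association with amyloid plaques.

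Complement components and receptors were followed through 9 genes, C1qa, C1qb, C1qc, C1rl, C3, C4b, C3ar1, C5ar1 and Cfp, taken by symbol from the table of normalised expression. All 9 were in the table, which lists 17951 genes. The table had already been filtered on low expression by the authors, so these are the members that passed. The values are log2 RPKM (log2 of reads per kilobase of gene, scaled for the size of the library), which sets genes of different length on one scale of level.

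The samples were Cd11b+ and Cd45+ microglia sorted from the brains of mice that had been injected with Me-X04, a fluorescent stain of amyloid that crosses into brain tissue. Wild-type mice (WT) gave 7 libraries, dye-negative microglia of 5xFAD transgenic mice (TG Me-X04-) gave 5 and dye-positive ones (TG Me-X04+) gave 4. The WT libraries came from dye-negative microglia, and the labels name 5xFAD as the strain of all samples. The 5xFAD mouse carries mutant human transgenes that neurons express under the Thy1 promoter, so that microglia meet Aβ made by other cells. Each of the numbers 1 to 4 marks a TG Me-X04- library and a TG Me-X04+ library that carry the label of 1 animal. The labels give an age of 2 months for WT and 6 months for TG mice, so that by the labels the effects of genotype and age cannot be told apart, and the methods of the study give other ages.

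The libraries held 15623664 to 27579017 reads on the listed genes, and the share of mitochondrial reads ran from 11.0% to 24.1% for WT, from 18.2% to 35.6% for TG Me-X04- and from 27.2% to 44.8% for TG Me-X04+ libraries. Their deviations from the group means separated them into 2 sets, A and B, along a first principal component with 35.9% of the within-group variance. Set A holds WT 1 to 3 and the TG libraries of animals 1 and 2, and set B the remaining 9. The methods name 2 sequencers with different read lengths, but not which library was run on which. Of 10 microglial markers all were in the table, with summed levels of 4332 to 8342 RPKM, and 2 of them, Tmem119 and P2ry12, were called lower in TG Me-X04+ than in WT microglia. Tmem119 was also called lower against TG Me-X04- (log2FC -1.58, limma adjusted p = 0.00821). The summed markers of 8 other cell types (border-associated macrophages, monocytes, neutrophils, astrocytes, oligodendrocytes, neurons, endothelium and lymphocytes) stayed at or below 29.4 RPKM in every library. These sums cover only the markers in the table, such as 3 of 8 for neutrophils and 2 of 6 for lymphocytes. Against WT, Flt1 (log2FC 5.9) and Folr2 (2.9) were called higher in TG Me-X04+ microglia. Called lower were Pecam1 (-4.8), Snap25 (-3.2) and Ccr2 (-1.6). Flt1 was also called higher against TG Me-X04- (3.5). In bulk samples, fewer cells of a type and less RNA per cell cannot be told apart.

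The upstream sequences of 3 genes are shown as examples, since against WT C1qb rose from a high level, C3 rose from near its floor and C1rl fell to its floor. RefSeq (GRCm38.p6) gave a start for 7 of the 9 genes, not including C1qa and C4b. Each line is the 250 bases before the RefSeq start, 5′ to 3′ on the gene's strand, at chr4:136886201-136886450 (minus strand) for C1qb, chr17:57228137-57228386 (minus strand) for C3 and chr6:124492863-124493112 (plus strand) for C1rl. Capitals mark matches, on either strand, to GAGGAA (the core bound by PU.1, the lineage factor of microglia), GTCAGC (the half-site of Maf factors), TTGCNNAA (the C/EBP site) or TATAAA (the TATA box).
C1qb: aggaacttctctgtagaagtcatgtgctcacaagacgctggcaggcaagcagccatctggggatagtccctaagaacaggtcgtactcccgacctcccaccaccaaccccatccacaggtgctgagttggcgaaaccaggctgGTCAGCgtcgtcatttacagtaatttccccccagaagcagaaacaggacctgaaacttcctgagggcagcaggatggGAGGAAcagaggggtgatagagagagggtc
C3: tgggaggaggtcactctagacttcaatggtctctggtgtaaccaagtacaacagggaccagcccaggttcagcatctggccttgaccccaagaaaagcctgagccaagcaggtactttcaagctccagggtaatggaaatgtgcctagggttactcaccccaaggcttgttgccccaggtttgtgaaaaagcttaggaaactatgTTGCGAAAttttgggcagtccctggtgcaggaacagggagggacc
C1rl: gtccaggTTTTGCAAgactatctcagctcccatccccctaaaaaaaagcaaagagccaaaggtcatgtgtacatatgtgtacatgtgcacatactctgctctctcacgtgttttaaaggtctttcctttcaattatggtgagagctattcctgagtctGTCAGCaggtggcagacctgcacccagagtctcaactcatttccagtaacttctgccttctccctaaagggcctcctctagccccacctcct

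C1qb held one GAGGAA and one GTCAGC, C3 one TTGCNNAA and C1rl one GTCAGC and one TTGCNNAA, and no 2 matches overlapped. Of 32851 upstream windows of this length in RefSeq, 23.3% held GAGGAA, 12.9% GTCAGC, 9.56% TTGCNNAA and 12.4% TATAAA. The window of C1qc, the neighbour of C1qb, also held one match each to GAGGAA and GTCAGC. Around the latter, at chr4:136893025-136893054 on the minus strand, it reads as follows, with GTCAGC in capitals. The RefSeq start of C1qc lies inside its span in the Gencode annotation, so that this stretch is upstream of that start and inside that span.
C1qc: gatatcactgtgGTCAGCctggatcagaac

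These matches are a description of the letters. TATAAA was found only in the window of C3ar1, and the windows of C5ar1 and Cfp held none of the 4 motifs.

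By level, the 9 genes fell into a high and a low part. C1qb had the highest mean level, 10.08 log2 RPKM over the 16 libraries and rank 38 of the 17951 genes. C1qc followed with a mean level of 9.12 (rank 54), C1qa with 7.31 (rank 133), C3ar1 with 6.36 (rank 254) and C5ar1 with 4.85 (rank 913). Microglia thus carried the 3 C1q chains and the 2 anaphylatoxin receptors among their more abundant transcripts. Cfp, C1rl, C4b and C3 had mean levels of -0.53, -1.23, -1.43 and -1.89 log2 RPKM, at ranks between 14379 and 16393.

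The order of the 5 abundant genes was the same by group mean in all 3 groups, with C1qb first and C5ar1 last. C1qb lay above C1qc in each of the 16 libraries, by 0.60 to 1.33 on the log2 scale, and C1qa below C1qc, with differences of -3.43 to -0.47. Over all libraries the levels of C1qa and C3ar1 were not apart beyond their spread, but their order differed by set. In set B C1qa (8.06 to 9.15) lay above C3ar1 (6.07 to 7.22). In set A the mean of C1qa was the lower one (5.75 and 6.32), with overlapping ranges. Among the 4 scarce genes the order of mean levels turned round, from C1rl (-0.26), Cfp (-0.59), C4b (-2.47) and C3 (-3.90) in WT to C3 (1.25), C4b (-0.98), Cfp (-1.29) and C1rl (-4.61) in TG Me-X04+ microglia. In WT, C1rl and Cfp as neighbours differed by less than their SDs (1.23 and 1.16, n = 7), as did C4b and Cfp in TG Me-X04+ microglia (SDs 0.48 and 1.26, n = 4).

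**Figure D1:**
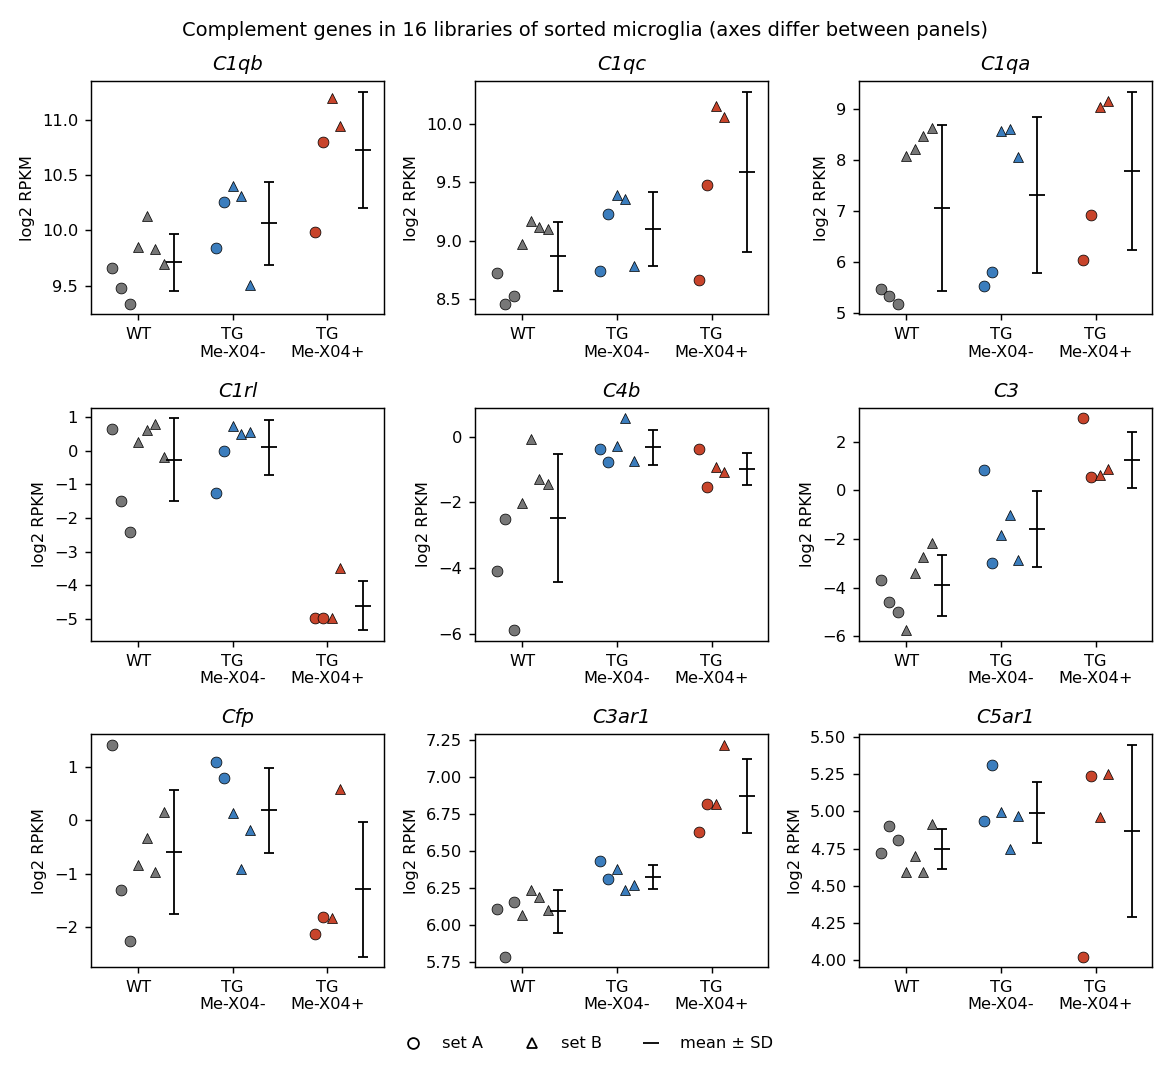
Levels of the 9 complement genes in log2 RPKM (vertical axes, which differ between panels) by group (7 libraries of WT, 5 of TG Me-X04-, 4 of TG Me-X04+), 1 point per library, with circles for set A and triangles for set B, and the group mean ± SD beside the points. C1rl lies at or near its floor in all 4 TG Me-X04+ libraries, C3 and C3ar1 lie above every WT library there, and C1qa is split by set.

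Whether microglia that had taken up Aβ differed from those of the same mice that had not was addressed by comparing TG Me-X04+ with TG Me-X04- microglia. C1rl fell in TG Me-X04+ microglia, while C3, C3ar1, C1qa, C1qb and C1qc had higher means without passing the test, a difference that turned negative for C3ar1 and the 3 C1q genes under quantile normalization. One of the 9 genes, C1rl, was called, which took an adjusted p below 0.05 with a log2FC of 0.7 or more in either direction (limma, Benjamini-Hochberg adjustment over all genes), against 5.49% of all genes tested (986 of 17951). Of those 986 genes 62.6% were higher in TG Me-X04+ microglia, a share that was 21.6% with scaling by reads outside mitochondrial genes and 50.8% under quantile normalization. With the replicate number as a block, which pairs the libraries of 1 animal, 2 of the 9 genes were called, C1rl and C3. The groups did not overlap for 2 genes, C1rl and C3ar1, against 7.93% of all genes. The median log2FC of the 9 genes was 0.48 and that of all genes -0.09.

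Set against WT, TG Me-X04+ microglia had 4 of the 9 genes called, C3, C1qb and C3ar1 higher and C1rl lower, against 14.3% of all genes (2562 of 17951). The groups did not overlap for C3, C1rl and C3ar1, against 10.5% of all genes, and the median log2FC was 0.74 over the 9 genes and -0.11 over all. In TG Me-X04- against WT microglia 0 of the 9 genes were called by limma, against 0.201% of all genes (36 of 17951). At an unadjusted p under 0.05 there were 2, C3 and C4b, beside 929 of all genes, and limma voom on the recovered reads also called 0. The groups did not overlap for 1 gene, C3ar1, against 1.06% of all genes, with a median log2FC of 0.35 over the 9 genes and 0.01 over all. The 3 comparisons share libraries and are not independent of each other.

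When the 2 sets of libraries were given a term in the fit, 4 of the 9 genes were called between the TG groups (C1rl, C3, C1qa and C1qb, beside 11.9% of all genes). For TG Me-X04+ against WT there were 6 (C3, C1qa, C1qb, C1qc, C1rl and C3ar1, beside 21.8%), and for TG Me-X04- against WT 0 (beside 0.563%). The sets were drawn from these same expression values, so the term lowers the remaining spread by construction. Calls and adjusted p-values with this term, here and below, are therefore a description. Scaling by the reads outside mitochondrial genes moved the median log2FC of all genes from -0.09 to -0.46 between the TG groups and from -0.11 to -0.39 against WT. The mitochondrial share was higher in TG Me-X04+ libraries, and its part in the results was not tested. Relative to that median, the difference of C1qb between the TG groups was 0.76 as deposited and 0.74 with this scaling, and that of C3ar1 0.64 and 0.62. Such a scaling moves all genes of a library by nearly the same amount, so these values could hardly change. Relative to the median under quantile normalization, the difference was -0.06 for C1qb and -0.04 for C3ar1.

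**Figure D2:**
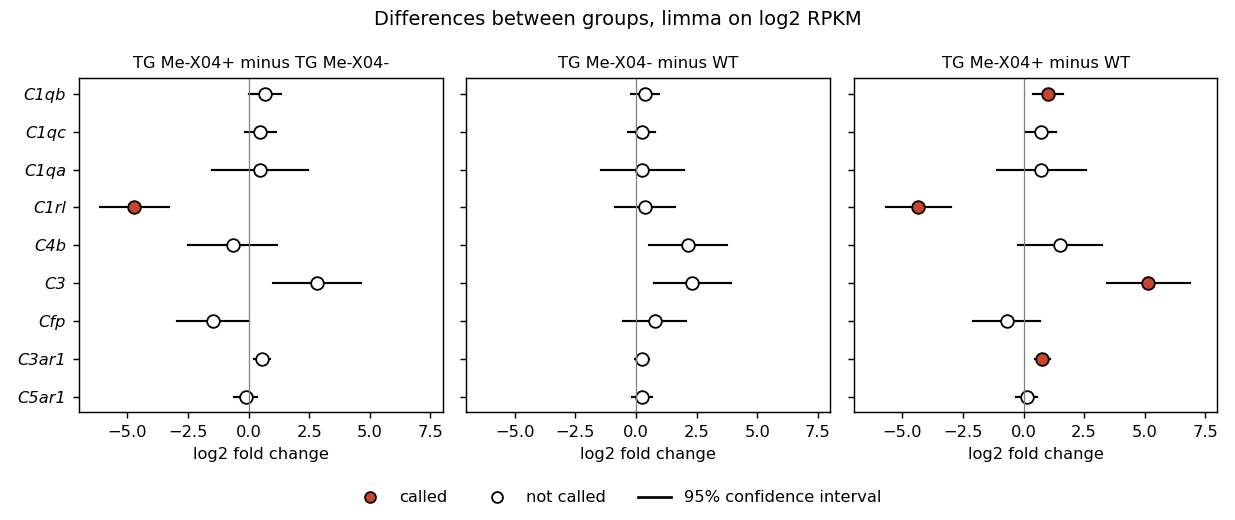
Log2 fold change (horizontal axis) of each of the 9 genes in the 3 comparisons, with its 95% confidence interval from limma as a line and filled points for called genes. C1rl is called lower in both comparisons of TG Me-X04+ microglia, C3, C1qb and C3ar1 are called higher against WT only, and no gene is called between TG Me-X04- and WT microglia. Under quantile normalization C1qb and C3ar1 are not called against WT.

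C1qb encodes the B chain of C1q (ENSMUSG00000036905, GRCm38 chr4:136880129-136886187, minus strand). Its level was 9.33 at the lowest, 9.70 at the median and 10.13 at the highest in WT libraries. In TG Me-X04- libraries 1 to 5 it was 9.84, 10.26, 10.40, 10.31 and 9.51, and in TG Me-X04+ libraries 1 to 4 it was 9.98, 10.80, 11.20 and 10.95 log2 RPKM. Of the TG Me-X04+ libraries 3 of 4 lay above every other library, and library 1 lay among the WT and TG Me-X04- values. Against WT, C1qb rose 2.03-fold (log2FC 1.02, SE 0.29, limma adjusted p = 0.0241). This call was lost when TG Me-X04+ library 2, 3 or 4 was left out (adjusted p of 0.0594, 0.0795 and 0.0637), with reads outside mitochondrial genes as the scale (log2FC 0.72, adjusted p = 0.128) and under quantile normalization (log2FC 0.10, adjusted p = 0.918).

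Between the TG groups the log2FC of C1qb was 0.67 (SE 0.31, limma adjusted p = 0.257). All 4 animals had the higher level in their TG Me-X04+ library, by 0.14, 0.54, 0.80 and 0.64. With the 2 sets in the fit the log2FC was 0.70 (adjusted p = 0.0401). Its 95% confidence interval without that term ran from 0.01 to 1.32.

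C1qc encodes the C chain and lies 3616 bases from C1qb (ENSMUSG00000036896, GRCm38 chr4:136889804-136893065, minus strand). The WT levels ran from 8.46 through a median of 8.97 to 9.16. The TG Me-X04- levels were 8.74, 9.23, 9.39, 9.35 and 8.78, and the TG Me-X04+ levels 8.66, 9.47, 10.15 and 10.06 log2 RPKM. TG Me-X04+ library 1 lay low here too, within the WT range and below every TG Me-X04- library, and libraries 3 and 4 were the highest of all. The log2FC was 0.49 (SE 0.31, adjusted p = 0.431) against TG Me-X04- and 0.72 (SE 0.29, adjusted p = 0.108) against WT in limma. Without TG Me-X04+ library 1 the latter was 1.03 (adjusted p = 0.0162), and when the sets had their own term it was 0.76 (adjusted p = 0.00586).

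C1qa encodes the A chain and is the third gene of the cluster, which spans 18675 bases (ENSMUSG00000036887, GRCm38 chr4:136895917-136898803, minus strand). In set A the WT levels were 5.47, 5.32 and 5.17, the TG Me-X04- levels 5.52 and 5.79 and the TG Me-X04+ levels 6.04 and 6.91. In set B the WT levels were 8.07, 8.21, 8.46 and 8.63, the TG Me-X04- levels 8.57, 8.60 and 8.06 and the TG Me-X04+ levels 9.03 and 9.15. No library of set A reached the level of any library of set B, and within each set both TG Me-X04+ libraries lay above every TG Me-X04- and WT library.

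With the group held constant, C1qa was 7.13-fold higher in set B than in set A (2.83 on the log2 scale), the 221st largest set difference of 17951 genes. The set difference of C1qc was 0.55 and that of C1qb 0.35 on the log2 scale. Relative to C1qc in the same library, C1qa lay 3.08 ± 0.35 (SD, n = 7) lower in set A and 0.81 ± 0.19 (SD, n = 9) lower in set B, while C1qb lay 1.08 ± 0.19 higher in set A and 0.87 ± 0.15 higher in set B. The ratio of the C1qa transcript to the other chains thus differed between the sets, and that of C1qb to C1qc much less. What sets the libraries apart was not tested.

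**Figure D3:**
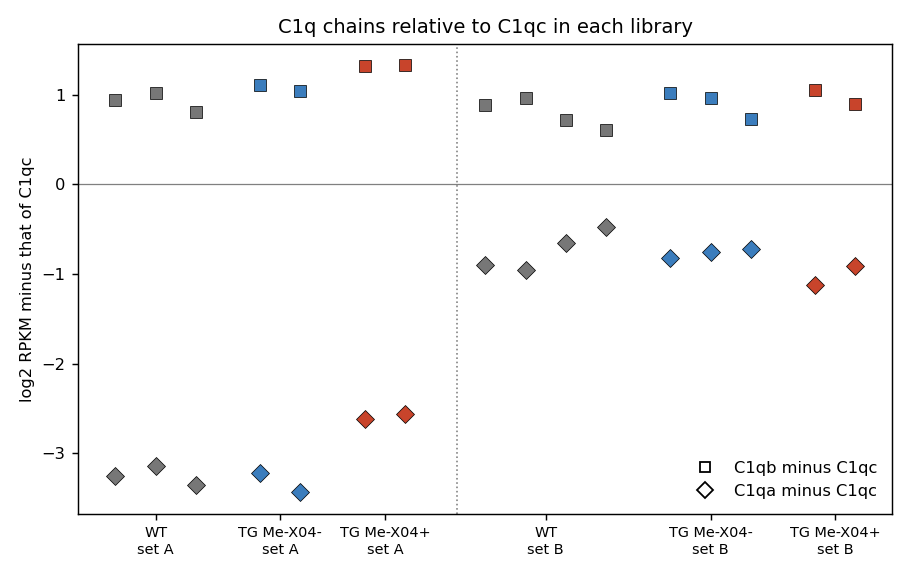
Level of C1qb (squares) and of C1qa (diamonds) relative to C1qc in the same library, in log2 units (vertical axis), for the libraries of each group in sets A and B (horizontal axis), 1 symbol of each kind per library. C1qb lies 0.60 to 1.33 above C1qc throughout, whereas C1qa lies at -3.43 to -2.56 relative to C1qc in set A and at -1.12 to -0.47 in set B.

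This split widened the spread of C1qa within each group, to an SD of 1.53 to 1.63. The log2FC was 0.48 (SE 0.93, limma adjusted p = 0.838) against TG Me-X04- and 0.74 (SE 0.87, adjusted p = 0.645) against WT. With the sets in the fit these values became 0.76 (adjusted p = 0.00967) and 0.94 (adjusted p = 5.15e-04), and both were called. Under the replicate block the value against WT was 1.65 (adjusted p = 0.0386), although WT and TG libraries of 1 number are not of 1 animal. The means of the TG groups differed by 0.82 within set A and by 0.68 within set B. All 4 animals had more C1qa in the TG Me-X04+ library, by 0.52, 1.12, 0.46 and 0.55, although under quantile normalization the log2FC over the groups was -0.29 (adjusted p = 0.930).

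C1rl encodes a secreted serine protease that resembles C1r, the protease that C1q activates (ENSMUSG00000038527, GRCm38 chr6:124493113-124510643, plus strand). In reads, WT libraries held 7 at the lowest, 76 at the median and 128 at the highest, and TG Me-X04- libraries 19, 58, 136, 104 and 107. TG Me-X04+ libraries held 0, 0, 0 and 4 reads. C1rl was thus a scarce transcript in WT and TG Me-X04- microglia that was at or near its floor in every TG Me-X04+ library, and the latter did not overlap with either group. Over all genes, those with 0 reads numbered 450 to 1831 in TG Me-X04+ libraries. In TG Me-X04- libraries they numbered 83 to 703 and in WT libraries 55 to 1381. The part of this loss of scarce genes in the fall of C1rl was not tested.

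In log2 RPKM the TG Me-X04- levels were -1.27, 0.00, 0.74, 0.48 and 0.56 and the TG Me-X04+ levels -4.98, -4.98, -4.98 and -3.50. C1rl fell by 4.71 (SE 0.68, limma adjusted p = 8.72e-04) against TG Me-X04- and by 4.34 (SE 0.64, adjusted p = 1.59e-04) against WT on this scale. The size depends on what is added to the reads: over 14 alternatives the first value ranged from -6.13 to -1.03, and C1rl was called in all 14 and with each library left out. In each of the 4 animals the TG Me-X04+ library was lower, with signed differences of -5.72 to -3.70. C1rl did not differ detectably between TG Me-X04- and WT (log2FC 0.37, SE 0.59, adjusted p = 0.999, 95% confidence interval -0.89 to 1.62). Within set A the WT level ranged from -2.41 to 0.64 and within set B from -0.20 to 0.78. Gm44096 overlaps C1rl on the opposite strand in the annotation, and as strand use in counting was not given in the sources used here, reads of both genes cannot be told apart.

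C1ra, the C1r protease itself, had 18 reads or fewer in every library, with a mean level of -3.02 in WT, of -2.68 in dye-negative and of -3.55 in dye-positive TG microglia, and was not called.

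C4b encodes C4, whose fragment joins that of C2 in the convertase that cleaves C3 (ENSMUSG00000073418, GRCm38 chr17:34728380-34743882, minus strand). Its levels in WT ran from -5.89 through a median of -2.02 to -0.07. TG Me-X04- libraries had -0.37, -0.76, -0.30, 0.57 and -0.75, and TG Me-X04+ libraries -0.37, -1.53, -0.91 and -1.09 log2 RPKM. The 3 WT libraries of set A were the lowest, at -4.08, -2.51 and -5.89, and those of set B reached into the TG range. C4b was higher by 2.15 (SE 0.76, adjusted p = 0.667) in TG Me-X04- and by 1.49 (SE 0.82, adjusted p = 0.252) in TG Me-X04+ than in WT microglia, neither of which was called by limma. Within set A the TG Me-X04- minus WT difference was 3.59 and within set B 1.04. C4a is a near-identical neighbour of C4b in the genome, and how the counting shared reads between them is not known. C4a had 30 reads or fewer in every library.

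C3 encodes the protein on which all complement pathways converge (ENSMUSG00000024164, GRCm38 chr17:57203970-57228136, minus strand). WT libraries held 5, 2, 1, 0, 10, 17 and 25 reads of it, TG Me-X04- libraries 148, 11, 37, 62 and 15, and TG Me-X04+ libraries 528, 110, 181 and 220. Every TG Me-X04+ library thus lay above every WT library, and TG Me-X04- library 1 was the only library outside the TG Me-X04+ group with over 100 reads.

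The levels of C3 in log2 RPKM were -5.75 at the lowest, -3.69 at the median and -2.18 at the highest in WT. TG Me-X04- libraries had 0.82, -2.99, -1.84, -1.01 and -2.86, and TG Me-X04+ libraries had 2.96, 0.53, 0.64 and 0.87. Against WT, C3 rose by 5.15 in TG Me-X04+ microglia (SE 0.81, limma adjusted p = 2.78e-04), called in all 13 alternatives with values from 1.70 to 5.70. Against TG Me-X04- the log2FC was 2.83 (SE 0.86, adjusted p = 0.0665), just outside the threshold. With the block it was 2.80 (adjusted p = 0.0445), and over the 4 animals alone 2.51 (adjusted p = 0.0267). The TG Me-X04+ library was the higher one in 4 of 4 animals, by 2.14, 3.52, 2.47 and 1.89. Without TG Me-X04- library 1 the log2FC was 3.43 (adjusted p = 0.0243), and without the other libraries, 1 at a time, it stayed between 2.26 and 3.07 and was not called. C3 was 2.33 higher in TG Me-X04- than in WT microglia (SE 0.75, adjusted p = 0.533, 95% confidence interval 0.74 to 3.91), with overlap between the groups.

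Markers of other cells were read beside C3. Of 8 neutrophil markers 3 were in the table, and their summed level was highest in TG Me-X04- library 1 (26.0 RPKM) and TG Me-X04+ library 1 (21.0 RPKM), the libraries with the most C3 in their groups. In the other TG Me-X04+ libraries it was 7.90, 7.96 and 0.40, and in WT libraries 0.40 to 12.7. The 3 monocyte markers in the table of 6 listed summed to 9.24 and 8.74 RPKM in the libraries of animal 1 and to 1.03 to 4.65 in the other TG libraries. With both libraries of animal 1 left out, C3 was 2.86 (adjusted p = 0.0679) above TG Me-X04- and 4.58 (adjusted p = 7.56e-04) above WT in limma. The 7 markers of border-associated macrophages summed to 24.3, 24.5, 4.79 and 6.18 RPKM in TG Me-X04+ libraries 1 to 4, to 3.23 to 8.09 in TG Me-X04- and to 2.57 to 6.50 in WT libraries. Of 6 astrocyte markers 4 were in the table, and they summed to 9.70 to 19.3 RPKM (TG Me-X04+), 13.2 to 25.5 (TG Me-X04-) and 15.1 to 29.4 (WT). The methods describe a gate on live cells with CD11b, CD45 and CX3CR1 on their surface. The part of other cell types in the level of C3 was not tested.

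Cfp encodes properdin, which stabilises the C3 convertase of the alternative pathway (ENSMUSG00000001128, GRCm38 chrX:20925454-20931555, minus strand). In WT its level ran from -2.25 through a median of -0.84 to 1.41. The TG Me-X04- levels were 1.08, 0.79, 0.14, -0.91 and -0.19, and the TG Me-X04+ levels -2.12, -1.81, -1.83 and 0.58 log2 RPKM. TG Me-X04+ libraries 1 to 3 lay below every TG Me-X04- library, and library 4 lay within their range. The log2FC was -1.48 (SE 0.70, limma adjusted p = 0.270) against TG Me-X04- and -0.70 (SE 0.66, adjusted p = 0.543) against WT, and Cfp was called in no comparison. It was lower in the TG Me-X04+ library of animals 1, 2 and 3, by -3.20, -2.60 and -1.97 as signed differences, and higher by 1.49 in animal 4.

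C3ar1 encodes the receptor for C3a, the small fragment released from C3 (ENSMUSG00000040552, GRCm38 chr6:122847138-122856161, minus strand). Its WT levels ran from 5.79 through a median of 6.11 to 6.23. The TG Me-X04- levels were 6.43, 6.31, 6.38, 6.24 and 6.27, and the TG Me-X04+ levels 6.63, 6.82, 6.82 and 7.22 log2 RPKM. The 3 groups formed steps without overlap, with the WT libraries lowest and the TG Me-X04+ libraries highest, and the gap between the highest WT and the lowest TG Me-X04- library was small. C3ar1 rose 1.72-fold against WT in TG Me-X04+ microglia (log2FC 0.78, SE 0.15, limma adjusted p = 0.00175).

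Against TG Me-X04- the log2FC of C3ar1 was 0.54 (SE 0.16, adjusted p = 0.0590), and for TG Me-X04- against WT it was 0.23 (SE 0.14, adjusted p = 0.999, 95% confidence interval -0.06 to 0.53). All 4 animals had more C3ar1 in the TG Me-X04+ library, by 0.20, 0.51, 0.44 and 0.98. Without TG Me-X04+ library 4 the log2FC against WT was 0.66, under the threshold of 0.7, at an adjusted p of 0.00905. The call against WT was also lost with reads outside mitochondrial genes as the scale (0.48, adjusted p = 0.0904) and under quantile normalization (0.15, adjusted p = 0.650).

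C5ar1 encodes the main receptor for C5a (ENSMUSG00000049130, GRCm38 chr7:16246743-16259540, minus strand). WT levels ran from 4.59 through a median of 4.72 to 4.92. The TG Me-X04- levels were 4.94, 5.31, 4.99, 4.75 and 4.97, and the TG Me-X04+ levels 4.02, 5.24, 4.97 and 5.25 log2 RPKM. TG Me-X04+ library 1 was the lowest of all 16 and the other 3 lay above every WT library. The log2FC of C5ar1 was -0.12 (SE 0.22, adjusted p = 0.824, 95% confidence interval -0.59 to 0.35) against TG Me-X04-, 0.12 (SE 0.21, adjusted p = 0.761, -0.32 to 0.56) against WT and 0.25 (SE 0.20, adjusted p = 0.999, -0.17 to 0.66) for TG Me-X04- against WT. The difference from TG Me-X04- was positive in animal 4 (0.50) and negative in animals 1, 2 and 3 (-0.91, -0.07 and -0.03).

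**Figure D4:**
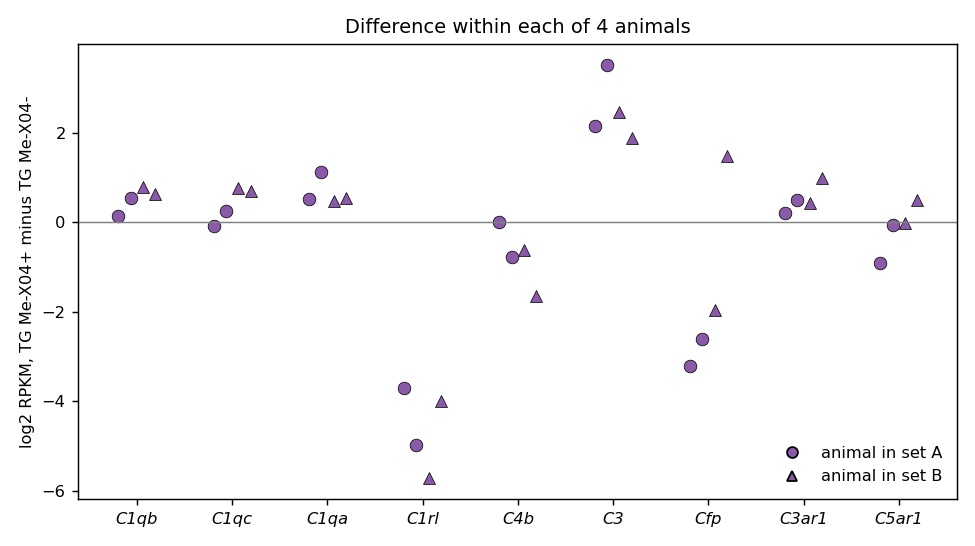
Difference in log2 RPKM between the TG Me-X04+ and the TG Me-X04- library of the same animal (vertical axis) for each of the 9 genes, 1 point per animal, with circles for animals in set A and triangles for those in set B. C1rl lies at -3.70 or below in all 4 animals, and C3, C3ar1, C1qa and C1qb are higher in all 4, although the group difference of C3ar1, C1qa and C1qb is negative under quantile normalization.

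Among themselves the members did not vary as 1 block. C1qb and C1qc had a Pearson r of 0.93 over the 16 libraries, and of 0.92 once group and set means were removed. C1qa correlated with C1qb at 0.53 and with C1qc at 0.73, and at 0.56 and 0.57 with those means removed. C3 and C3ar1 correlated at 0.78 over the libraries and at 0.09 with the means removed, so that their likeness lay between the groups. C1rl had an r of -0.66 with C3 and -0.69 with C3ar1, and of 0.03 and 0.20 with the means removed. These correlations are a description over 16 libraries that share their scaling.

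The genes most like each member over the 16 libraries, among 13324 genes with a mean of at least 0 log2 RPKM, were found by Pearson r. Group and set means were not removed for this search, so a shared difference between groups or sets counts as likeness. For C1qa, which was split by set, this holds for the set difference above all. For C1qb they were Rplp0 (0.97), Gm8730 (0.95) and Rpl23a-ps3 (0.95), and for C1qc Hexa (0.95), Gm13573 (0.95) and Cox6a1 (0.94). C1qa was followed most closely by Syngr2 (0.98), LOC100862446 (0.98) and Gm4750 (0.97). Hexa encodes a lysosomal hexosaminidase subunit and Rplp0 a ribosomal protein. C3ar1 was nearest to Gm8276 (0.95), Eif4b (0.94) and Creg1 (0.93), and C3 to Rpl12-ps1 (0.91), Enpp1 (0.90) and Spp1 (0.90). The secreted protein osteopontin, encoded by Spp1, went from a mean of -1.99 in WT through 1.34 to 5.03 log2 RPKM in TG Me-X04+ microglia. Nearest to C1rl were Sgsh (0.95), Acp2 (0.93) and Stab1 (0.92), with mean levels of Sgsh of 0.88 in WT, of 1.11 in dye-negative and of -2.35 in dye-positive TG microglia. Sgsh and Acp2 encode lysosomal enzymes and Stab1 a scavenger receptor. C4b was nearest to Cib2 (0.96), Rsad1 (0.88) and Stat3 (0.87), C5ar1 to Fam76a (0.87), Slc20a2 (0.84) and Tiparp (0.83), and Cfp to Cbfa2t2-ps1 (0.83), Btbd19 (0.76) and Tmem265 (0.75).

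The wider complement system was read from a list of 57 other genes, of which 23 were in the table and 34 were not analysed here. Of the classical and lectin initiators 5 of 15 were in the table, of the alternative and terminal components 1 of 9 (Cfb), of the regulators 7 of 22 and of the receptors and C1q-binding proteins 10 of 11. Between the TG groups 1 of the 23 was called, beside 5.49% of all genes. It was Itgax, which encodes the alpha subunit of complement receptor 4, an integrin that binds the C3 fragment iC3b. Its level rose from a WT mean of 0.00 ± 0.69 (SD, n = 7) through 1.92 ± 0.61 in TG Me-X04- (SD, n = 5) up to 5.69 ± 0.60 in TG Me-X04+ microglia (SD, n = 4). The log2FC of Itgax was 3.77 (SE 0.42, limma adjusted p = 9.70e-05) against TG Me-X04- and 1.92 (SE 0.36, adjusted p = 0.0365) when TG Me-X04- was set against WT. The second call was lost in 10 of the 12 fits that left out 1 library, in all but those without WT 1 or TG Me-X04- 3. The median log2FC of the 23 genes was -0.02 between the TG groups, beside -0.09 for all genes and 0.48 for the 9 members.

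Against WT, 6 of the 23 other genes were called in TG Me-X04+ microglia, 4 higher and 2 lower, beside 14.3% of all genes. The other 5 and Itgam are named here after their values were seen. Masp1, a protease of the lectin pathway, was 3.55 higher (SE 0.86, limma adjusted p = 0.00864), Itgb2, the beta subunit that pairs with Itgam and Itgax, 1.00 higher (SE 0.26, adjusted p = 0.0131) and Calr, the C1q-binding chaperone calreticulin, 0.77 higher (SE 0.17, adjusted p = 0.00385) on the log2 scale. C5ar2, the second receptor for C5a, had a log2FC of -0.96 (SE 0.30, adjusted p = 0.0381), and Cr2, a receptor for C3d, of -1.91 (SE 0.52, adjusted p = 0.0181). With reads outside mitochondrial genes as the scale and under quantile normalization, Itgb2 (0.70 and 0.38) and Calr (0.47 and 0.22) were no longer called. Cr2 was not called under quantile normalization (adjusted p = 0.120), with library weights (0.0627) or with 1 added to RPKM (0.0512). C5ar2 was not called with library weights (adjusted p = 0.170), under median centring (0.0822), without a variance trend (0.0590), in the 2-group fit (0.0548) or without animal 1 (0.0904). Of the 11 fits that left out 1 library, the call was lost in 6 for C5ar2, in 2 for Cr2 (without TG Me-X04+ 2 or 4) and in 1 for Itgb2 (without TG Me-X04+ 2). Masp1 was a scarce transcript, with 0 to 69 reads in WT and 53 to 223 reads in TG Me-X04+ libraries. None of the 7 regulators was called in any comparison. Their median log2FC was -0.25 between the TG groups and -0.02 for TG Me-X04+ against WT. Itgam, the alpha subunit of complement receptor 3, had a log2FC of -0.06 for TG Me-X04+ against WT and was not called.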

How the data were processed

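RNA sequencing values of 16 libraries from sorted microglia were used as deposited. Per the labels and the methods of the study, libraries were made with an Ovation kit, reads were trimmed with Trim Galore 0.4.4, aligned to GRCm38 with STAR 2.5.4b, keeping reads with up to 10 positions, counted on Gencode genes with featureCounts, filtered on low counts and scaled by TMM with edgeR 3.24.3. The authors deposited log2 RPKM per library, with a prior of 2 reads at the mean library size added. They also deposited fold changes, p-values and score columns (moderated t, log odds) of their own comparisons, which enter no result. Whole reads were computed back from the deposited values (100% of values within 0.01 of a whole read) for depths and alternatives only.

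The log2 values of the 3 groups entered 1 fit without covariates in limma 3.58.1 under R 4.3.3 (lmFit, then eBayes with the trend option), and its two-sided p-values were adjusted after Benjamini-Hochberg across the 17951 genes. Calls needed an adjusted p below 0.05 together with a log2FC of 0.7 or more in either direction. The quasi-likelihood test of the methods needs counts and was not run. The fit was tested on simulated reads of independent libraries with a common spread. These held neither the sets nor libraries of the same animal, so that test does not cover either. Replicates were the libraries of a group. WT and TG libraries were grouped by their labels. The labels give both TG libraries of 1 number the same animal, and their deviations from the group means correlated at 0.292 to 0.329 (4 pairs), beside 0.272 on average for other numbers of the same set. WT numbers are other animals.

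The 9 members, the list of other complement genes and the marker lists were chosen with earlier results of these data known. Named were all 9 members, each other complement gene called between the TG groups or between TG Me-X04- and WT, and the 3 genes most like each member. Coordinates are of a later Gencode release on GRCm38 and upstream sequences of RefSeq (GRCm38.p6). Figures were drawn with matplotlib 3.10.9. The alternatives were other variance models, library weights, scalings and pseudocounts, a filter, 2-group fits, no fold threshold, a replicate block, a term for the sets, limma voom and each library left out. The fit on 4 animal pairs and that without animal 1 were chosen after seeing the data.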

Additional observations from a re-analysis of the deposited data

Results flagged for a closer look

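Within the 27 groups of values (9 genes in 3 groups), 4 held a library whose gap to the nearest other one exceeded Dixon's 95% critical value. Chance gives about 1 in 20 for independent normal values. Values tied at the floor, as for C1rl, do not meet that condition, so the flags are a description and show no excess. C1rl was at -3.50 log2 RPKM in TG Me-X04+ library 4, which held 4 reads, and at -4.98 in the other 3, which held 0. C3 was at 2.96 in TG Me-X04+ library 1, beside 0.53 to 0.87 in the others of its group. Cfp was at 0.58 in TG Me-X04+ library 4, beside -2.12 to -1.81 in the others. C3ar1 was at 5.79 in WT library 2, beside 6.07 to 6.23 in the other 6.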

How the results depend on the processing

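Of 663 values of the 9 genes under alternatives, 620 kept their direction and their side of the threshold, 16 came to be called, 8 were no longer called and 19 changed sign. Between the TG groups 1 of them was called. There were 2 under quantile normalization, with either pseudocount (1 or 0.1 added to RPKM), in limma voom, with the replicate block and on the 4 animal pairs alone, 4 with a term for the sets, 0 when genes with a mean log2 RPKM under 0, C1rl, C3, C4b and Cfp among them, were left out, and 1 to 2 with single libraries left out. Against WT, TG Me-X04+ had 2 in place of 4 under quantile normalization, with scaling outside mitochondrial genes and with that filter, and 2 to 5 with single libraries left out.

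Signs changed under quantile normalization for TG Me-X04+ minus TG Me-X04- in C1qa (-0.29), C1qc (-0.26), C1qb (-0.11) and C3ar1 (-0.10), and for TG Me-X04+ minus WT of C1qa (-0.014), C1qc (-0.19) and C5ar1 (-0.19, and -0.18 with scaling outside mitochondrial genes). C5ar1 between the TG groups was 0.11 with library weights, 0.15 without animal 1 and -0.25 to 0.16 with single libraries left out, and against WT -0.0032 to 0.41. C1qa in TG Me-X04- minus WT was -0.064 with library weights and -0.062 to 0.71 with single libraries left out. None of these was called either way, and the cause was not tested.

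Of the other complement genes, 1 was called between the TG groups, against 2 under quantile normalization, with 1 added to RPKM and on the animal pairs, 3 with scaling outside mitochondrial genes, 6 with the set term and 1 to 2 with single libraries left out. The 1 call of TG Me-X04- against WT was 0 without a variance trend, under median centring, with 1 added to RPKM, in 2-group fits, with the replicate block, in limma voom and without animal 1, and 0 to 1 with single libraries left out. The 6 calls of TG Me-X04+ against WT became 3 to 6 with single libraries left out. The replicate block changed the call of C3 between the TG groups, as given above, and that of C1qa against WT (log2FC 1.65, adjusted p = 0.0386), and no other call of a member.

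The share of calls with higher expression over all genes was 62.6% between the TG groups, 50.8% under quantile normalization and 21.6% with scaling outside mitochondrial genes and 74.2% with 1 added to RPKM. Against WT it was 57.8% for TG Me-X04+ and 33.8% with scaling outside mitochondrial genes. Counts of calls over all genes moved by more than 1.5 times in 2-group fits (470 in place of 986 between the TG groups) and without animal 1 (620), with the set term (2142, and 3919 in place of 2562 for TG Me-X04+ against WT) and, for TG Me-X04- against WT, from 36 to between 13 (1 added to RPKM) and 175 (library weights). Counts of a few reads limit C1rl, C3, C4b and Cfp and, among the other genes, Masp1. The 4 to 7 libraries per group limit all comparisons.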
